A study of Homo sapiens with 6 samples.

Results

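The genes described here are 59 components of interferon signalling and interferon-stimulated genes, chosen as the rows of the normalized count table whose symbol equals an entry of a fixed gene list. All 59 were found among the 20347 gene symbols of the table. RNA-seq libraries came from PaTu8988t, a human pancreatic ductal adenocarcinoma (PDAC) cell line, with 3 control replicates and 3 independent clones of a *SAMD1* knockout (KO). Control cells carried the Lenti-CRISPR V2 plasmid with an unspecific guide RNA, and KO clones carried it with guides to *SAMD1*, which encodes a reader of unmethylated CpG islands. Clones were selected with puromycin, and cells were cultured in the same serum-containing medium, and the labels name no interferon, virus or other stimulus. Each KO replicate is 1 clone, while nothing states that the control replicates are separate clones, so the spread of the groups may have different sources, and for the controls it may be technical.

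Type I and type III interferons act through JAK1 and TYK2 on STAT2, which is found with IRF9 in the complex ISGF3. This complex binds the interferon-stimulated response element (ISRE), a repeat of the letters GAAA, in the promoters of interferon-stimulated genes. Type II interferon instead acts mainly through gamma-activated sites (GAS). Many interferon-stimulated genes encode sensors and effectors against viral RNA, and in epithelial cells some of them are kept at a basal level without an added stimulus.

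The ISRE motif is shown for 8 members with a promoter window, chosen after their values were seen: members past a threshold or lower or variable in the KO clones, and a divergent pair that shares a site. The windows, 250 bases before to 50 bases after a transcript start, came from RefSeq on GRCh38.p14, and 47 of the 59 members had at least 1. The ISRE core was searched as GAAANNGAAA on either strand (TTTCNNTTTC when read on the other strand), and matches could overlap each other. It was present in 28 of these 47 members (59.6%), against 4.21% of the 15166 genes of the table with a window. In each line below, the 30 bases run 5′ to 3′ on the gene's strand and the capitals mark the core.

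IFIT5: ttacgtttagTTTCGATTTCttaagtttca
OAS3: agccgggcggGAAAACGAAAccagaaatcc
EPSTI1: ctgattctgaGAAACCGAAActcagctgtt
SAMD9: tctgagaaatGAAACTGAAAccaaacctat
IFI44: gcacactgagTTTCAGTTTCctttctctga
IFIT1: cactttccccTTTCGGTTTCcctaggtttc
DTX3L: ccagggaagcGAAACTGAAActttgcgccc
PARP9: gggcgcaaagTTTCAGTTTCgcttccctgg

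The *IFIT5* stretch lies at chr10:89414539-89414568 on the plus strand, with its core beginning 19 bases before the start, and it is the middle of 3 matches in that window. For *OAS3* it lies at chr12:112938452-112938481 (plus strand, core 12 bases before the start), and for *EPSTI1* at chr13:42992272-42992301 (minus strand, 50 bases before). The *SAMD9* stretch is at chr7:93118096-93118125 (minus strand, 136 bases before), the *IFI44* stretch at chr1:78649761-78649790 (plus strand, 18 bases before) and the *IFIT1* stretch at chr10:89392510-89392539 (plus strand, 103 bases before). *DTX3L* and *PARP9* are divergent neighbours, and both of their lines show the same site, chr3:122564322-122564351, read on opposite strands. No window was at hand for *IFNAR2*, *IRF2*, *IRF3*, *IRF7*, *OAS2*, *OASL*, *USP18*, *TRIM22*, *IFIT2*, *IFITM2*, *MX2* and *PML*. The GAS core TTCNNNGAA, which reads the same on both strands, matched in 13 of the 47 members (27.7%), against 9.02% of all genes with a window. Members' windows held fewer CpG dinucleotides than those of all genes with a window, with a median of 16 against 25 in the window of each gene that had the most. These matches describe the letters only and were not tested for binding.

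Library totals ran from 35589477 to 45172216 recovered reads, and the 59 members took 0.267% to 0.286% of the reads of a library. The targeted gene, *SAMD1*, had 2231, 2383 and 2299 normalized counts in the controls and 874, 1082 and 825 in the KO clones, which is 40.2% of the control mean (log2 fold change −1.32 ± 0.10, adjusted p = 0.00072, limma). Of 6 PDAC epithelial markers, 5 were expressed and 1, *KRT19*, was at 0 in every library, and their summed level ran from 62874 to 66081 in the controls and from 67857 to 108772 in the KO clones. Their part in the results was not tested. Of 7 leukocyte markers 1 passed the count minimum and *CD3E* was at 0, of 6 fibroblast markers 2 passed and *DCN* and *LUM* were at 0, and of 4 endothelial markers 3 passed.

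Most interferon genes had similar RNA levels in control cells and *SAMD1* KO clones, where fewer cells expressing a gene and less RNA per cell cannot be told apart. Of the 59 members, 50 reached a mean of 10 normalized counts over the libraries and were tested. None was called higher and 2 were called lower, *IFIT2* and *EPSTI1*, where a call needed both a log2 change of more than 0.5 in size and p below 0.01 before adjustment in limma. Among all 12773 tested genes, 5.77% were called higher and 2.08% lower. With Benjamini-Hochberg adjustment over all tested genes, 5 members had an adjusted p below 0.05, against 13.0% of all tested genes. These were *JAK1* and *IFIT5*, which rose, and *STAT3*, *OAS3* and *IFIT2*, which fell. At an unadjusted p below 0.05, 6 of the 50 members were higher and 9 lower, against 16.1% and 13.5% of all tested genes. edgeR and DESeq2 on the recovered reads also called 0 members higher and the same 2 lower.

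The median log2 fold change of the 50 members was −0.02, and that of all tested genes was −0.01. Both medians became positive when libraries were scaled to their 75th percentile, with 0.0021 for the members and 0.013 for all tested genes. Within ±0.25 lay 34 members (68.0%), against 67.6% of all tested genes. The control and KO values did not overlap for 17 members, 7 higher and 10 lower in the KO clones, against 37.8% of all tested genes. The binned fold changes show members in each bin between −0.5 and 0.5, none above 0.5, and 6 members below −0.5. Of these 6, only *IFIT2* and *EPSTI1* were called. Of all tested genes, 4.11% lay between 0.5 and 0.75, 2.29% between 0.75 and 1, and 385 genes above 1. On the lower side, 2.1% of all tested genes lay between −0.75 and −0.5, against 0% of members. Between −1 and −0.75 it was 0.885% against 2%, and between −1.25 and −1 it was 0.564% against 4%. Further down, it was 0.204% against 2% between −1.5 and −1.25, and 0.157% against 2% between −1.75 and −1.5. Between −2.25 and −2, the bin of *IFIT2*, it was 0.094% against 2%, where 2% is 1 member. The other bins down to −2.5 held no member, and 20 of all tested genes lay below −2.5.

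**Figure D1:**
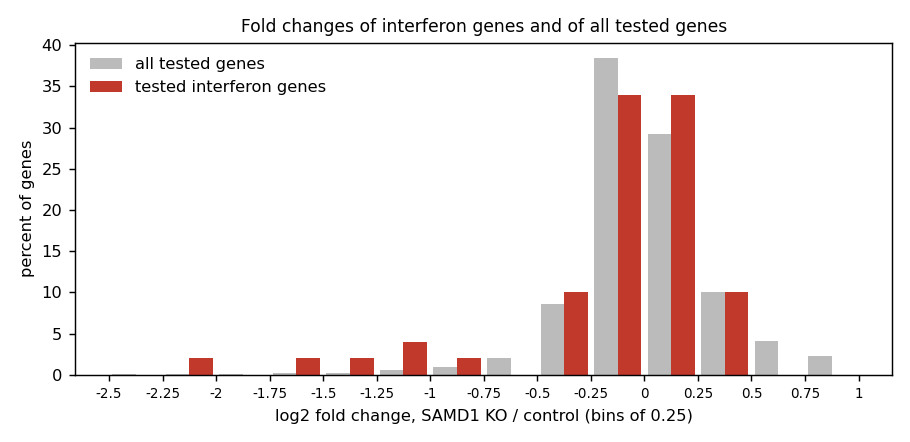
Percent of genes (vertical axis) in bins of 0.25 of the log2 fold change between KO and control cells (horizontal axis), for the 50 tested interferon genes in red and all 12773 tested genes in grey. Both groups have most of their genes between −0.25 and 0.25, no interferon gene lies above 0.5, and 405 of all tested genes lie outside the plotted range.

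Like most tested genes, members differed more among the KO clones than among the controls. The SD of the log2 value was larger in the KO clones for 45 of 50 members (90.0%), against 82.8% of all tested genes. Its median over the members was 0.063 in the controls and 0.14 in the KO clones, against 0.059 and 0.15 over all tested genes. The SE was smaller for more abundant genes: the SE of the log2 fold change had a median of 0.33 for the 11 members with a mean of 10 to 100, of 0.097 for the 17 members of 100 to 1000, and of 0.072 for the 22 members above 1000. In the plot of fold changes by role, the long bars belong to such low genes or to genes that differed between clones.

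**Figure D2:**
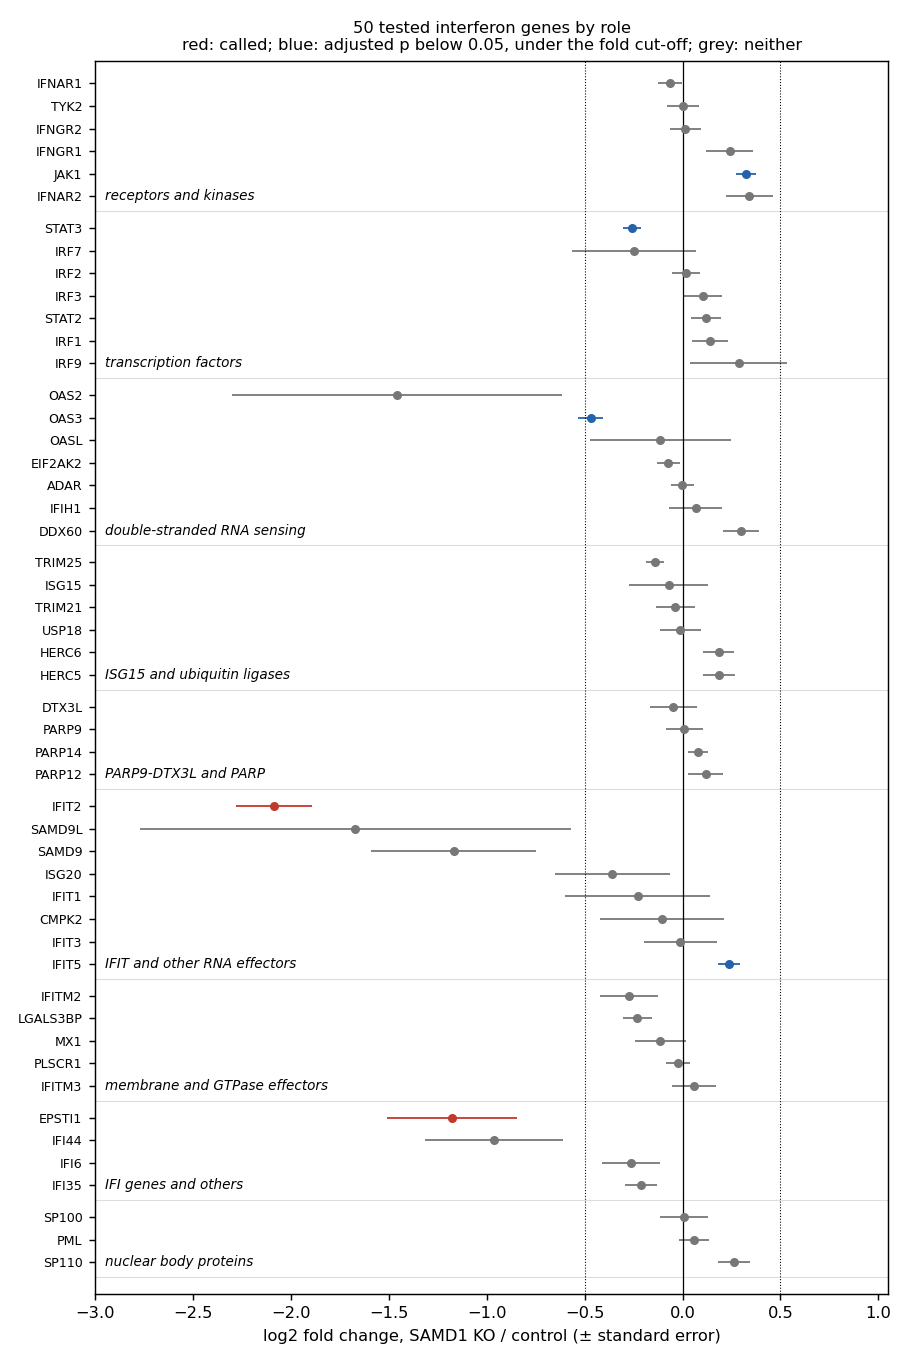
Log2 fold change between KO and control cells (horizontal axis, bars ± standard error) of the 50 tested members grouped by role, with dotted lines at −0.5 and 0.5. Only *IFIT2* and *EPSTI1* are red (called), *JAK1*, *STAT3*, *OAS3* and *IFIT5* are blue (adjusted p below 0.05, smaller change), and the other 44 are grey.

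The receptors and kinases were all expressed, and 1 of 6 rose. *JAK1*, at chr1:64833223-65067754, encodes the kinase that serves the receptors of all interferon types. It had 5177, 5239 and 5469 normalized counts in the controls and 6742, 6797 and 6339 in the KO clones. The groups did not overlap, and the level was 1.25 times that of the controls (log2 fold change 0.32 ± 0.05, adjusted p = 0.0093, limma). This adjusted p rose above 0.05 when control replicate 1 or 2 was left out (up to 0.072). *TYK2*, its partner kinase, had 3706, 4182 and 3693 in the controls and 3623, 4251 and 3724 in the KO clones, so both groups covered the same range. *IFNAR2*, the ligand-binding chain of the type I receptor, had 271, 244 and 258 in the controls and 292, 372 and 320.2 in the KO clones. Its groups did not overlap, but its adjusted p was 0.11 (log2 fold change 0.34 ± 0.12), and 14.7% of its exonic bases are shared on the same strand with the read-through gene *IFNAR2-IL10RB*. *IFNAR1*, *IFNGR1* and *IFNGR2*, the remaining receptor chains, had log2 fold changes of −0.06, 0.24 and 0.01, with adjusted p-values of 0.54, 0.23 and 0.93 (limma).

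Of the 7 transcription factors, 1 fell. *STAT3*, at chr17:42313324-42388540, is activated by cytokines of the interleukin-6 family as well as by interferons. Its normalized counts were 6161, 6008 and 5995 in the controls and 5125, 4976 and 5106 in the KO clones. Every clone was below every control, with 83.7% of the control mean (log2 fold change −0.26 ± 0.05, adjusted p = 0.013, limma). Leaving out any single control replicate took the adjusted p above 0.05, to at most 0.097. *IRF2*, a factor that binds the same element as *IRF1*, had 2350, 2269 and 2272 in the controls and 2132, 2490 and 2368 in the KO clones, and its groups overlapped. *STAT2* and *IRF9*, both components of ISGF3, were far apart in level, with a control mean per kilobase of transcript of 350.2 normalized counts for *STAT2* and 8.64 for *IRF9*, of whose exonic bases 23.9% are shared with another gene of the same strand. *IRF9* had 13.7 to 14.7 normalized counts in the controls and 16.4 to 18.9 in the KO clones (adjusted p = 0.48). *IRF1*, *IRF3* and *IRF7* had log2 fold changes of 0.14, 0.10 and −0.25, none with an adjusted p below 0.34, and *IRF7* had only 28.8 normalized counts in clone 3 against 51.5 to 63.0 in the controls.

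**Figure D3:**
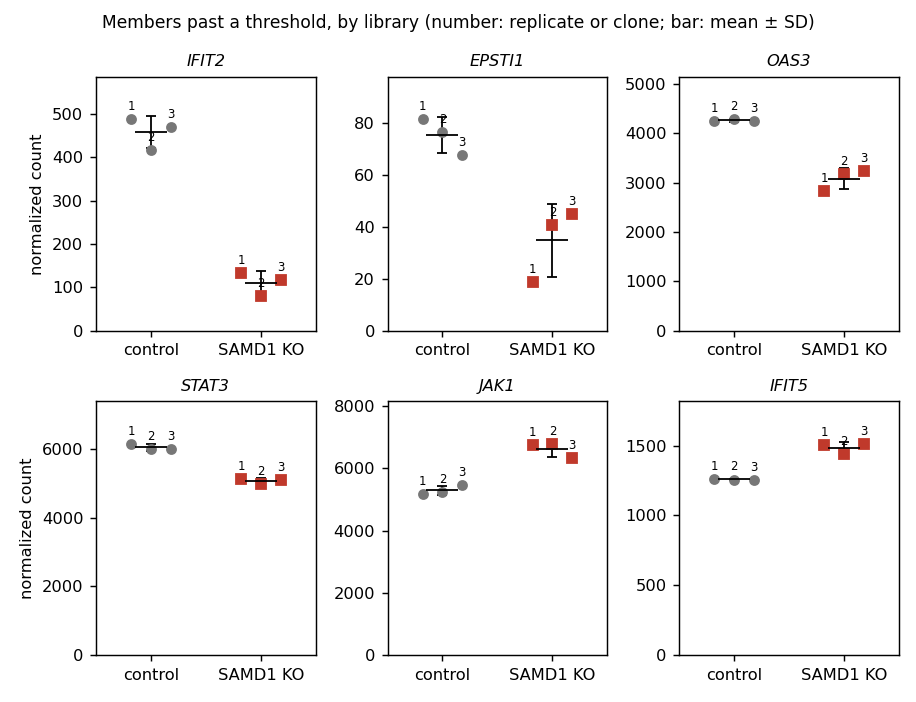
Normalized counts (vertical axis, from 0) of the 6 members past a threshold, in each control replicate (grey circles) and each SAMD1 KO clone (red squares), with the mean ± SD as a bar. In every panel the 3 clones lie apart from the 3 controls, below them for *IFIT2*, *EPSTI1*, *OAS3* and *STAT3* and above them for *JAK1* and *IFIT5*.

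Among the sensors of double-stranded RNA and the enzymes they switch on, *OAS3* fell and the other 6 tested members did not pass. The OAS enzymes make 2′-5′-linked oligoadenylates, which activate RNase L, and *OAS1*, *OAS3* and *OAS2* are neighbours on chromosome 12. *OAS3*, at chr12:112938051-112976460, had 4238, 4281 and 4255 normalized counts in the controls and 2831, 3179 and 3228 in the KO clones. The highest control was 1.01 times the lowest, and each clone was lower than all controls, at 72.3% of the control mean together (log2 fold change −0.47 ± 0.06, adjusted p = 0.0047, limma). The adjusted p stayed below 0.05 in each of 15 alternative settings, and the change was just short of the 0.5 that a call needed. The group of the 40 nearest tested genes differed little from the controls in the same clones, by 0.0018, −0.015 and −0.056 on the log2 scale. The level of *OAS2* depended on the clone, with 32.0, 34.2 and 26.3 in the controls and 1.98, 39.7 and 11.7 in clones 1, 2 and 3 (log2 fold change −1.46 ± 0.84, adjusted p = 0.29, limma). *OAS1* had at most 10 reads in any library. The closely related *OASL* had 11.7 to 18.3 normalized counts in the controls and 9.89 to 20.7 in the clones.

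The abundant members of this group did not differ beyond their spread. *ADAR*, which edits adenosine in double-stranded RNA, had 15097, 15391 and 15794 in the controls and 16464, 14715 and 15097 in the KO clones (log2 fold change −0.00, with a 95% interval of −0.14 to 0.14). *EIF2AK2*, which encodes the kinase PKR, had 6835, 6885 and 7293 against 7009, 6682 and 6292 (interval of the log2 fold change −0.21 to 0.065). *IFIH1*, the sensor MDA5, had a log2 fold change of 0.07 (adjusted p = 0.78). *DDX60*, a helicase, had 453, 479 and 511 against 629.9, 594 and 550.5, and its adjusted p was 0.076 in limma and 0.049 in DESeq2.

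None of the 6 tested genes of ISG15 conjugation and ubiquitin ligation passed. *ISG15*, the ubiquitin-like modifier, had 168, 204 and 160.4 normalized counts in the controls and 145, 225 and 146 in the KO clones, and its groups overlapped. *TRIM25*, a ligase that acts on the RNA sensor RIG-I, had 5782, 5875 and 6112 against 5417, 5398 and 5306. All clones were below all controls for *TRIM25*, but the adjusted p was 0.099 (log2 fold change −0.14 ± 0.05, limma). *HERC5*, the main ligase for ISG15, had 1298, 1254 and 1344 against 1552, 1322 and 1575, and *HERC6*, its neighbour on chromosome 4, had a log2 fold change of 0.18 like the 0.19 of *HERC5* (adjusted p of 0.17 and 0.18). *USP18*, which removes ISG15, and *TRIM21*, an antibody receptor, had log2 fold changes of −0.01 and −0.04. The 40 genes nearest to *TRIM21* were higher in clone 1 by a median of 0.41, and after that regional shift was taken out its log2 fold change was −0.26 (adjusted p = 0.044). *TRIM22* had at most 6 reads.

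The 4 genes of the PARP9-DTX3L pair and the related PARP enzymes, which add ADP-ribose to proteins, had log2 fold changes within ±0.12 and did not pass. *PARP14* had 5367, 5465 and 5513 in the controls and 5913, 5478 and 5889 in the KO clones. The 40 genes nearest to it were lower in all 3 clones, and with that regional shift taken out its log2 fold change was 0.20 instead of 0.08 (adjusted p = 0.017 instead of 0.35, limma). The divergent pair over the shared ISRE core did not move together from clone to clone: *DTX3L* had 3386, 2671 and 2431 in clones 1, 2 and 3 against 2800.2 to 3052 in the controls, while *PARP9* had 802, 924 and 761 against 764 to 868. The log2 fold change of *PARP12* was 0.12 (adjusted p = 0.42).

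The largest change of the list was in the IFIT family, and in 1 gene of it. IFIT proteins bind viral RNA that lacks the host's cap methylation or carries a free triphosphate, and *IFIT2*, *IFIT3*, *IFIT1* and *IFIT5* follow each other on the plus strand of chromosome 10. *IFIT2*, at chr10:89283694-89309271, had 487, 417 and 469.6 normalized counts in the controls and 133, 79.5 and 116 in the KO clones. All 3 clones were at least 3-fold below every control, and the control mean was 4.19 times the KO mean (log2 fold change −2.08 ± 0.20, adjusted p = 0.0012, limma). This difference kept its sign and an adjusted p below 0.05 in all 15 alternative settings, between −2.24 and −1.87. Of its exonic bases, 12.1% overlap an unnamed gene of the same strand.

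None of the 3 neighbours of *IFIT2* was called lower. *IFIT3* had 58.3, 72.4 and 83.6 in the controls and 72.2, 64.8 and 73.8 in the KO clones, with a 95% interval of the log2 fold change from −0.45 to 0.42. *IFIT1* had 107.5, 95.9 and 83.6 against 75.2, 48.4 and 145.7, a range that spans the controls (log2 fold change −0.23 ± 0.37, adjusted p = 0.72, limma). *IFIT5*, at chr10:89414568-89421605, had 1263, 1257 and 1254 against 1502, 1438 and 1514, and it rose to 1.18 times the control level (log2 fold change 0.24 ± 0.06, adjusted p = 0.036, limma). That rise lost its adjusted p below 0.05 when any 1 control replicate was left out, with at most 0.16.

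The ratio of *IFIT2* to each neighbour, taken within a library, was compared after these values had been seen. The log2 ratio of *IFIT2* to *IFIT1* was 2.12 to 2.49 in the controls and −0.33 to 0.82 in the KO clones, and that to *IFIT3* was 2.49 to 3.06 against 0.29 to 0.88. For *IFIT5* it was −1.59 to −1.37 against −4.18 to −3.50. Groups did not overlap for any of these 3 ratios, which all contain the same *IFIT2* values. Each gave p = 0.1 in an exact two-sided permutation test, the smallest value that 3 against 3 allows. As the separation of *IFIT2* had been seen before, this test adds no evidence to it. The 40 nearest tested genes differed from the controls by a median of 0.031, −0.010 and 0.015 in the 3 clones at *IFIT2*.

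**Figure D4:**
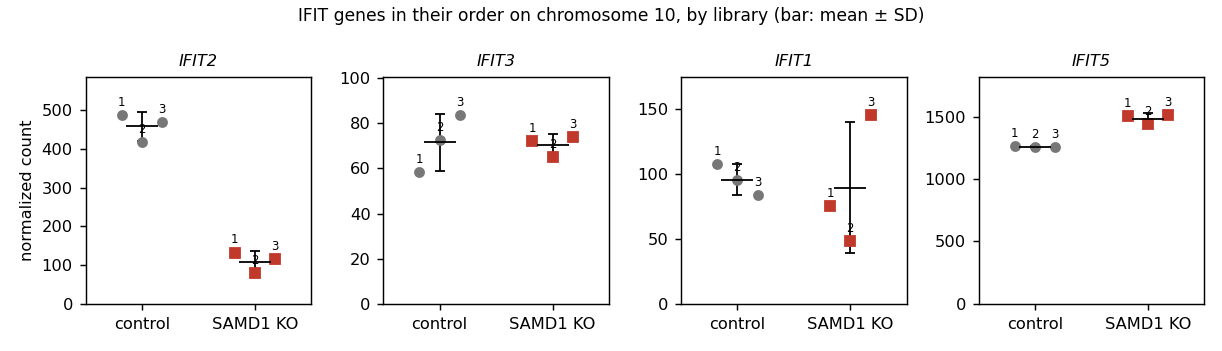
Normalized counts (vertical axis, from 0, own scale per gene) of the 4 IFIT genes in their chromosomal order, per control replicate (grey circles) and SAMD1 KO clone (red squares), with the mean ± SD as a bar. *IFIT2* is lower in each clone, at 79.5 to 133 against 417 to 487, while *IFIT3* overlaps, *IFIT1* scatters and *IFIT5* is slightly higher.

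Several other RNA effectors varied from clone to clone. *SAMD9*, which restrains poxviruses and cell growth, had 237, 218 and 225 normalized counts in the controls and 74.2, 63.1 and 214 in clones 1, 2 and 3. Clones 1 and 2 were about 3-fold lower and clone 3 was just below the lowest control, so the adjusted p was 0.12 (log2 fold change −1.17 ± 0.42). Without clone 3 the log2 fold change was −1.71 and the adjusted p 0.0019 (limma). Its paralog and neighbour *SAMD9L* had 28.6, 47.0 and 45.8 in the controls and 19.8, 0.86 and 52.2 in the clones, where the value of clone 2 is 1 read (log2 fold change −1.67 ± 1.10, adjusted p = 0.35, limma). Both genes were thus highest in clone 3, while *OAS2* was highest in clone 2 and lowest in clone 1. *ISG20*, an RNA exonuclease, and *CMPK2*, a mitochondrial nucleotide kinase, had log2 fold changes of −0.36 and −0.10 with overlapping groups, and *RSAD2*, which encodes viperin and lies beside *CMPK2*, had at most 4 reads.

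**Figure D5:**
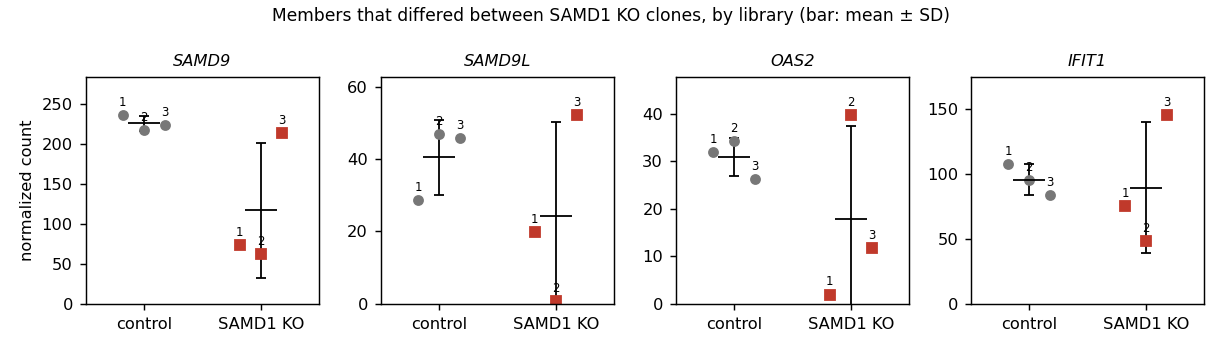
Normalized counts (vertical axis, from 0) of the 4 members whose SAMD1 KO clones spanned more than 3-fold, per control replicate (grey circles) and clone (red squares), with the mean ± SD as a bar, cut off at 0. Clone 3 is highest for *SAMD9*, *SAMD9L* and *IFIT1*, and clone 2 for *OAS2*.

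Counted by clone, 5 members were more than 2-fold below the control mean in clone 1 (*OAS2*, *IFIT2*, *SAMD9*, *IFI44* and *EPSTI1*), 3 in clone 2 (*IFIT2*, *SAMD9* and *SAMD9L*) and 2 in clone 3 (*OAS2* and *IFIT2*). No member was more than 2-fold above it in any clone. Of all tested genes, 2.17%, 2.23% and 1.44% were more than 2-fold below in clones 1, 2 and 3, and 3.44%, 4.49% and 4.01% above. *IFIT2* was the only member on this list for every clone.

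The membrane and GTPase effectors held the most abundant members, and none of the 5 tested passed. Per kilobase of transcript, *IFITM3*, which blocks the entry of enveloped viruses, had a control mean of 21796 normalized counts, followed by *IFITM2* with 6093, *LGALS3BP* with 4477 and *ADAR* with 2334. *IFITM3* had 13819, 13139 and 12994 normalized counts in the controls and 11483, 15848 and 14645 in the KO clones, covering the controls on both sides. *IFITM2* had 6217, 6040 and 6131 against 3882, 5672 and 5913, lower in every clone but mainly in clone 1 (adjusted p = 0.27). The IFITM genes are near-identical copies, so the division of reads between them is uncertain. *LGALS3BP*, a secreted glycoprotein, had 9631, 10549 and 9396 against 9064, 8379 and 7788, with groups apart and an adjusted p of 0.086 (log2 fold change −0.23 ± 0.07, limma). *MX1*, a dynamin-like GTPase against influenza viruses, had 630.3, 595 and 609 against 476, 559 and 678, and *PLSCR1*, a phospholipid scramblase, had a log2 fold change of −0.02. *IFITM1* had at most 8 reads, *BST2*, which tethers budding virus, at most 3 and *MX2* none.

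Among *EPSTI1* and the IFI genes, whose functions are less well defined, all 4 tested members were lower on average and 1 was called. *EPSTI1*, at chr13:42886388-42992271, was first described as an epithelial-stromal interaction gene. Its normalized counts were 81.2, 76.3 and 67.6 in the controls and 18.8, 40.6 and 45.0 in the KO clones. The groups did not overlap and the control mean was 2.16 times the KO mean (log2 fold change −1.18 ± 0.33, unadjusted p = 0.0088 and adjusted p = 0.0598, limma). Its adjusted p ranged from 0.023 to 0.21 over 15 alternative settings and was below 0.05 in 5 of them. *IFI44* had 38.9, 54.8 and 56.1 against 14.8, 27.6 and 36.9, with groups apart and an adjusted p of 0.12. *IFI35* had 607, 541 and 551 against 492, 496 and 477, also apart (adjusted p = 0.14), and *IFI6* had 245, 258 and 243 against 172, 207 and 248. *IFI27* had at most 2 reads, *IFI44L* at most 1 and *XAF1* none.

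The nuclear body proteins did not pass either. *SP100* had 2138, 2154 and 2243 normalized counts in the controls and 1894, 2075 and 2677 in the KO clones, and *PML*, the scaffold of these bodies, had 905, 973 and 852 against 989, 920.1 and 933, and both overlapped. *SP110* was higher in every clone, with 635, 657 and 721 against 552, 561 and 562 (log2 fold change 0.26 ± 0.08, adjusted p = 0.075). The 40 genes nearest to *SP110* were higher in the same clones by a median of 0.15, 0.13 and 0.26, and its log2 fold change without this regional shift was 0.09.

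Set beside the promoter motif, the 23 tested members with an ISRE core in their window had a median log2 fold change of −0.05, with 8 values above 0 and 15 below, and the 17 with a window but no match had 0.01, with 10 above and 7 below. With a match, 1 member rose (*IFIT5*) and 1 fell (*OAS3*) at an adjusted p below 0.05, and without one again 1 rose (*JAK1*) and 1 fell (*STAT3*). Tested members without a window are in neither group, among them *IFIT2*, which fell most (log2 fold change −2.08, adjusted p = 0.0012, limma). The difference between both groups of genes was not tested.

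Of 49 further genes of the pathway that are not members, 37 were tested. Of these, 0 were called higher and 1 was called lower, against 5.77% and 2.08% of all tested genes. The gene called lower was *GBP1*, a guanylate-binding GTPase (log2 fold change −1.73 ± 0.49, adjusted p = 0.061, limma). It had 20.6, 14.7 and 14.9 normalized counts in the controls and 4.94, 1.73 and 8.10 in the KO clones. Its mean was 16.7 in the controls and 4.92 in the KO clones, so only its control values brought it over the count minimum. The call of *GBP1* thus depends on this filter and rests on 2 to 18 reads per library. In limma and in edgeR 0 of the 37 genes had an adjusted p below 0.05. In DESeq2 3 of them had one (*SOCS3*, *TLR3* and *TBK1*). In limma with the regional shift removed 4 had one (*IRF8*, *SOCS3*, *TRIM5* and *TRIM14*). Of all tested genes, 13.0% had an adjusted p below 0.05 in limma. At an unadjusted p below 0.05 in limma, 2 of the 37 were higher and 5 lower, against 16.1% and 13.5% of all tested genes. The interferon genes *IFNB1*, *IFNK*, *IFNL1*, *IFNL2* and *IFNG* had no reads in any library. *IFNE* had none in the controls and 2.97, 0 and 4.50 normalized counts in KO clones 1, 2 and 3, at most 5 reads. *IFNL3* had 1 read, in KO clone 1. Both were under the count minimum and were not tested.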

How the data were processed

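RNA-seq was made with a stranded poly(A) kit from 3 control replicates and 3 *SAMD1* KO clones. The authors aligned reads to the human transcriptome with RNA-STAR, and the submitters' processing notes name featureCounts, DESeq2 and hg38. The strand setting is not given in the sources used here, so reads shared by overlapping genes are uncertain. The deposited signal is a read count per gene divided by 1 size factor per library (0.873 to 1.16), and 100% of its values were whole reads within 0.01 after rescaling. The authors also deposited their own DESeq2 comparison (mean, log2 fold change, standard error, statistic and p-values), which was not used.

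Values were fitted with limma 3.58.1 (lmFit, eBayes with trend, R 4.3.3) on log2(normalized count + 1), which understates changes of low genes, for the 12773 genes with a mean of at least 10. No covariate was used. Errors of fold changes are SE, and p-values were adjusted by Benjamini-Hochberg over every tested gene. Called genes had a log2 change of more than 0.5 in size and p below 0.01. Where groups are said not to overlap, all values of one lie above the other. Recovered reads were also fitted with edgeR 4.0.16 and DESeq2 1.42.0, and the other alternatives changed the scaling, the pseudocount (0.1 or 10), the minimum mean (50 or none), the adjusted p (0.01), the replicate number as a block, each library in turn, and the median shift of the 40 nearest genes. The fit was tested on simulated data. Positions and transcript lengths (canonical transcript) came from GENCODE 44 on GRCh38, with 188 older symbols matched by synonym.

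All members are accounted for by role. Normalized counts are given for those called or with an adjusted p below 0.05, and for the 2 of each role with the highest mean. They are also given for those whose clones span over 3-fold at a mean of at least 20, and for others by choice after seeing them. Fold changes are not printed for every one of these. Members and lists were chosen with earlier results of these data known.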

Additional observations from a re-analysis of the deposited data

How the results depend on the processing

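No member was called higher under any alternative. Of the 2 members called lower, *IFIT2* was called in every setting, and *EPSTI1* was not called with scaling to the 75th percentile, with a minimum mean of 50, with the replicate number as a block, or with an adjusted p below 0.01, each of which left 1. Leaving out 1 library gave 1 to 5 members called lower: 1 without any 1 of the control replicates, 3 without KO clone 2 (with *OAS2*) and 5 without KO clone 3 (*OAS3*, *IFIT2*, *SAMD9*, *IFI44* and *EPSTI1*). The number called lower among all 12773 tested genes also shifted, from 266 with all libraries. It was 183, 180 and 191 without control replicate 1, 2 or 3, and 346, 283 and 370 without KO clone 1, 2 or 3. The cause was not tested. The median log2 fold change of the members was −0.060 with the regional shift removed, against −0.017 in the main fit. That of all tested genes was −0.0027 with the regional shift removed. The replicate numbers were checked for pairing: same-numbered samples had correlations of their deviations of 0.039, 0.13 and 0.032. Of the 3 numbers, 2 correlated best with their own. The labels do not say whether same-numbered samples share more than a number, and this was not tested further. With the block, *IFIT5* lost its adjusted p below 0.05, and *JAK1*, *STAT3*, *OAS3* and *IFIT2* kept it. Members with an adjusted p below 0.05 numbered 2 to 9 over the alternatives, with 7 in DESeq2 and 9 with the regional shift removed, and 2, 2 and 3 without control replicate 1, 2 or 3. The matching numbers over all tested genes were not counted for the alternatives. The SE of members under a mean of 100 ran from 0.19 to 1.10, and the largest, of *SAMD9L* and *OAS2*, belong to members that varied between clones.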

Other observations

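*IFI16*, a nuclear DNA sensor outside the list of members, had 1414, 1432 and 1416 normalized counts in the controls and 12.9, 0 and 2284 in KO clones 1, 2 and 3. Its adjusted p was 0.18 (limma), and clone 3 lay above the controls while the other clones were nearly or fully without reads.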
